A study of Mus musculus with 6 samples.

Results

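The genes described here are the inducible parts of the machinery that makes and loads peptides for MHC class I, in spleens of imiquimod-treated lupus-prone mice with and without the interferon-γ receptor. The 10 members are Psmb8, Psmb9, Psmb10, Psme1, Psme2, Tap1, Tap2, Tapbp, Tapbpl and Erap1, taken by gene name from the deposited table, which holds 44794 named loci in all. Psmb8 and Tap2 carry the same locus and the same values there, so the 10 genes gave 9 loci. A further 2 loci hold a second gene, Psme1 with the neighbouring Fitm1 and Tapbp with the overlapping Zbtb22, and their values cannot be divided between the genes.

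Spleen RNA of 6 samples was sequenced, 3 from B6.Sle1b mice, a C57BL/6 line with the Sle1b lupus susceptibility interval, and 3 from Sle1b.IFNγR-/- mice, which carry the same interval and lack the interferon-γ receptor. The latter are called receptor-deficient below. All animals were given imiquimod, a drug that activates TLR7, with 3 doses in each of 4 weeks, so the interval and the drug are shared by the groups. The labels used here name neither the receptor chain that is disrupted nor the animals' age, and do not say that each sample is a separate mouse; p-values therefore measure the spread between these samples. The comparison asks how these transcripts differ when interferon-γ cannot signal.

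Cytosolic proteins are cut into peptides by the proteasome, whose core holds catalytic β subunits. Interferon-γ is known to induce Psmb8, Psmb9 and Psmb10, which replace the constitutive catalytic subunits encoded by Psmb5, Psmb6 and Psmb7 in newly built cores, giving the immunoproteasome. Interferon-γ is also known to induce the PA28 activator (Psme1 and Psme2), the TAP transporter (Tap1 and Tap2), which carries peptides into the endoplasmic reticulum, and the steps that trim and load them there.

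The genes lie in few places, with coordinates from GENCODE on GRCm38, the build named in the submitters' processing notes. Psmb9 (chr17:34181987-34187764, minus strand), Tap1 (chr17:34187553-34197225, plus), Psmb8 (chr17:34197721-34201454, plus) and Tap2 (chr17:34203527-34216321, plus) stand side by side in the MHC class II region, and Tapbp (chr17:33915899-33929292, plus) lies nearby. Psme1 (chr14:55578123-55581529, plus) and Psme2 (chr14:55587441-55591113, minus) are separated by 5911 bases. Psmb10 (chr8:105935735-105938444, minus), Tapbpl (chr6:125223933-125231860, minus) and Erap1 (chr13:74639568-74693201, plus) stand alone among the members.

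Psmb9 and Tap1 are transcribed away from each other from a shared stretch, and their values are set side by side below. Their RefSeq promoter windows (GRCm38.p6, 250 bases before to 50 after the start) overlap by 275 of 300 bases. The Tap1 window (chr17:34187306-34187605, plus strand) is shown 5′ to 3′, with the 225 bases between both start sites in capitals.
Tap1: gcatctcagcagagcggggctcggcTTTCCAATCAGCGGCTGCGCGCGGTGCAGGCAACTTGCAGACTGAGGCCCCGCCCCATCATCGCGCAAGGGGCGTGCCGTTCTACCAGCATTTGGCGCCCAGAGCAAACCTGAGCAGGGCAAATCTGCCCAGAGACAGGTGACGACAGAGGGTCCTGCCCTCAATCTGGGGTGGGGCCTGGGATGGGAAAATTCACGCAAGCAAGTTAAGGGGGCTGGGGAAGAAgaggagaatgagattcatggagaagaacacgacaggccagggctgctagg
Windows were searched on both strands for GAAA followed after any 2 bases by GAAA again, the core of the interferon-stimulated response element bound by IRF factors, and for TTCNNNGAA, the interferon-γ-activated site. Of the 10 members, 8 had a RefSeq window, and Tap2 and Tapbpl had none in the table. The first motif was in the windows of Erap1 and Psme1, 2 of 8 genes, and in 3.44% of 32851 windows. The second was in that of Psmb8, 1 of 8 genes, and in 8.30% of windows. Neither string occurred in the Tap1 or Psmb9 window. The windows of Erap1 (chr13:74639603-74639902, plus) and Psme1 (chr14:55578244-55578543, plus) are shown with the first motif, read from the opposite strand, in capitals, as the 2 members that hold it.
Erap1: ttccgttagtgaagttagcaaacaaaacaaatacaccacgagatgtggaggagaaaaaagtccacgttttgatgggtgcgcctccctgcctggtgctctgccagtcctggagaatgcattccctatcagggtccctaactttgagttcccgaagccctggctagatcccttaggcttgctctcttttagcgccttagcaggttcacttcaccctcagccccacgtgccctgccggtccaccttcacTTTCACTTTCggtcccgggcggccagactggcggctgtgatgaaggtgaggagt
Psme1: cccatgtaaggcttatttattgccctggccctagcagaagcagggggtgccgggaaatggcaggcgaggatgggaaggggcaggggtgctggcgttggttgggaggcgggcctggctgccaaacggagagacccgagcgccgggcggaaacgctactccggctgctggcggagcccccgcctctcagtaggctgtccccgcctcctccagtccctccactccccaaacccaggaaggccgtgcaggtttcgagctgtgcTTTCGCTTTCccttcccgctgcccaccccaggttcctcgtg
A match says only that the letters are present.

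The values are fragment counts per locus that the authors scaled between libraries. Divided by the value of 1 fragment, the libraries held between 4394299 and 6349827 fragments, of which between 17.5% and 27.0% fell on named loci. The lowest share was in B6.Sle1b replicate 2 and the highest in replicate 1. The other libraries lay between 19.2% and 19.95%. B6.Sle1b replicate 1 stood apart: the median level of 29 ribosomal protein loci was 3.19 times the geometric mean over libraries there, 0.754 times in replicate 2, 0.985 times in replicate 3 and between 0.746 and 0.881 times in the receptor-deficient libraries. Ifngr1, the ligand-binding chain of the receptor, held 81.5, 34.5 and 63.75 scaled counts in the B6.Sle1b libraries, against 43.7, 21.4 and 24.0 in the receptor-deficient ones, with overlap. This does not check the labels, as a disrupted gene can still be transcribed.

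None of the 9 loci passed the threshold used between the genotypes, an adjusted p of 0.05 in a limma fit of the 19227 named loci whose mean reached 10, where 0.0% of loci passed. Psmb9 had the largest difference of the 9, with a mean 4.22 times as high in B6.Sle1b as in Sle1b.IFNγR-/-. It was the only one with an unadjusted p under 0.05, 1 of 9 loci against 2.08% of all loci for the lower direction, and 0 of 9 against 1.02% for the higher. On the log2(value + 1) scale, which sets every direction given for a list below, 7 of the 9 were lower and 2, Psme1 and Tapbpl, higher in Sle1b.IFNγR-/-, while 58.1% of all tested loci were lower. The plain mean was higher in B6.Sle1b at all 9 loci, 1.25 times for Psme1 and 1.07 times for Tapbpl. The median log2 difference of the 9 was -0.12 and that of all tested loci -0.083. No member's groups were free of overlap, against 5.19% of tested loci without overlap in the lower direction and 3.51% in the higher.

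**Figure D1:**
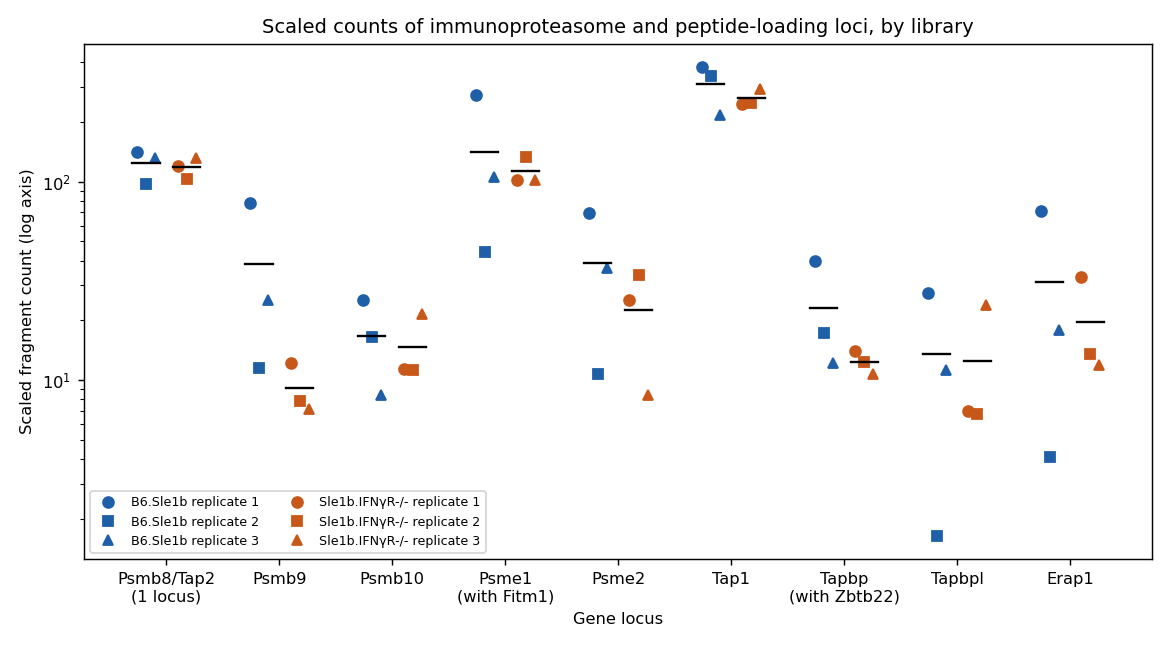
Scaled fragment counts (log axis) of the 9 loci in each of the 6 libraries. Points are libraries, coloured by genotype and shaped by replicate, and black lines are group means. B6.Sle1b replicate 1 is the highest of the 6 in every locus, and the groups overlap in each.

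The catalytic subunits were described first. Psmb9, the inducible counterpart of Psmb6, was at 78.5, 11.5 and 25.3 scaled counts in the B6.Sle1b libraries, given in the order of replicates 1 to 3 here and throughout. The receptor-deficient libraries held 12.2, 7.87 and 7.19. The 3 receptor-deficient libraries lay close together, and only the lowest B6.Sle1b library, replicate 2, reached into their range. The means were 38.4 ± 35.3 and 9.10 ± 2.74 (SD, n = 3 each). The log2 difference was -1.59 (SE 0.62, 95% interval -2.92 to -0.25) on the log2(value + 1) scale, which understates the change of low genes (limma, unadjusted p = 0.023, adjusted p = 0.99976).

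Psmb9 was counted from few fragments. They numbered 77, 14 and 27 in the B6.Sle1b libraries, against 14, 7 and 6 in the receptor-deficient ones. The exact Poisson 95% intervals, which cover counting error only, were 7.65 to 23.5 for B6.Sle1b replicate 2 and 2.81 to 14.4 for Sle1b.IFNγR-/- replicate 2. Of all tested loci, 0.645% had a more negative difference. Its size rested in part on 1 library: without B6.Sle1b replicate 1 the difference was -0.88 (limma, unadjusted p = 0.197), and without replicate 2 it was -2.21 (unadjusted p = 0.00090, adjusted p = 0.222). Adjusted p over all alternatives for Psmb9 lay between 0.222 and 0.99988.

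Psmb10, the inducible counterpart of Psmb7, had 25.5, 16.4 and 8.44 in the B6.Sle1b libraries, against 11.4, 11.2 and 21.6 in the receptor-deficient ones. The receptor-deficient libraries lay inside the B6.Sle1b range, and the log2 difference was -0.12 (95% interval -1.28 to 1.04). The locus that joins Psmb8, the inducible counterpart of Psmb5, to the transporter gene Tap2 had 141, 97.8 and 132 in B6.Sle1b. It had 120, 103 and 132 in Sle1b.IFNγR-/-. All 6 libraries lay within a narrow band, and the log2 difference was -0.052 (95% interval -0.64 to 0.54). Whether these loci differ from Psmb9 in their response was not tested.

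Psme1 and Psme2 encode the α and β subunits of PA28, a ring that caps the proteasome core and opens it. Psme1, with Fitm1, had 272, 44.4 and 105 in the B6.Sle1b libraries, against 102, 134 and 102 in the receptor-deficient ones. The B6.Sle1b libraries enclosed the Sle1b.IFNγR-/- libraries on both sides, with a log2 difference of 0.041 (95% interval -1.02 to 1.11). Psme2 had 69.3, 10.7 and 36.6 against 25.4, 33.7 and 8.39. Its groups also overlapped, with a log2 difference of -0.62 (95% interval -1.99 to 0.76). The partner subunits followed the same order within each genotype, replicate 1 above 3 above 2 in B6.Sle1b and 2 above 1 above 3 in the receptor-deficient libraries. Among the latter, Psme2 varied 4.02-fold and Psme1 1.31-fold between the highest and lowest library.

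Tap1 encodes a chain of the peptide transporter. It held 376, 340 and 216 scaled counts in the B6.Sle1b libraries, against 245, 249 and 292 in the receptor-deficient ones. B6.Sle1b replicate 2, low for most other members, was second of the 6 here, and replicate 3 was the lowest. The means of 310 ± 84.1 and 262 ± 26.1 (SD, n = 3 each) differed by -0.21 on the log2 scale (SE 0.27, 95% interval -0.79 to 0.38; limma, adjusted p = 0.99976). The locus was counted from between 222 and 413 fragments a library.

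Psmb9 and Tap1 were set side by side within each library. Psmb9 stood at 20.9%, 3.39% and 11.7% of the scaled count of Tap1 in the B6.Sle1b libraries, against 5.0%, 3.15% and 2.46% in the receptor-deficient ones. The percentages compare libraries, not the genes' levels, as no length was applied. Between B6.Sle1b replicates 1 and 2 the scaled count of Psmb9 differed 6.82-fold, that of Tap1 1.11-fold and that of the Psmb8 and Tap2 locus 1.44-fold. In GENCODE, where Psmb9 starts further upstream than in RefSeq, the genes overlap over 212 bases on opposite strands, and with no strand setting stated, fragments there cannot be assigned to either.

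The editors and the trimming enzyme act in the endoplasmic reticulum. Tapbp encodes tapasin, which bridges class I molecules to TAP and selects peptides. It had 39.7, 17.3 and 12.2 in the B6.Sle1b libraries, against 14.0, 12.4 and 10.8 in the receptor-deficient ones. B6.Sle1b replicates 1 and 2 were above all receptor-deficient libraries and replicate 3 was among them, with a log2 difference of -0.69 (95% interval -1.79 to 0.42). Tapbpl encodes TAPBPR, a tapasin-related peptide editor that works without TAP. It had 27.5, 1.64 and 11.2 against 7.00, 6.74 and 24.0. Its B6.Sle1b replicate 2 value came from 2 fragments, fewer than the 3 taken as a floor, and its log2 difference was 0.25 (95% interval -1.67 to 2.17). The Vamp1 gene runs over all of Tapbpl on the other strand.

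Erap1, the aminopeptidase that trims peptides to the length class I binds, had 71.3, 4.11 and 17.8 in the B6.Sle1b libraries, against 33.2, 13.5 and 11.98 in the receptor-deficient ones. B6.Sle1b held both the highest and the lowest library, 17.4-fold apart. The lowest was counted from 5 fragments (exact Poisson 95% interval 1.62 to 11.7), and the log2 difference between its replicates 1 and 2 was higher than in 99.2% of tested loci. The log2 difference was -0.037 (95% interval -1.71 to 1.64). Erap1 and Cast overlap over 834 bases at their ends on opposite strands.

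**Figure D2:**
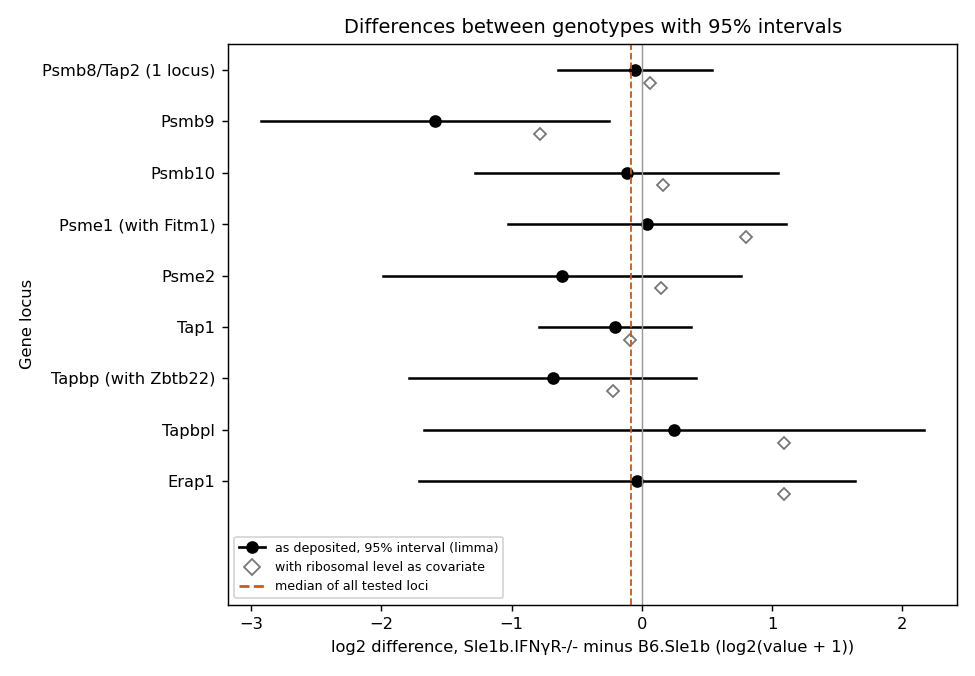
The log2 difference between genotypes (horizontal axis, negative where Sle1b.IFNγR-/- is lower) for each locus, with black points and 95% intervals from limma and open diamonds for the fit with the ribosomal level as a covariate. Of the 9 intervals, that of Psmb9 alone lies wholly below 0, and with the covariate its value is -0.78.

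B6.Sle1b replicate 1 was the highest of the 6 libraries in 9 of 9 loci, and replicate 2 the lowest of its group in 6 of 9. The share of all tested loci with these orders is not given here. The members differed in how strongly they followed this pattern of replicates 1 and 2. The log2 difference between those 2 libraries was 3.82 for Erap1, 3.43 for Tapbpl, 2.67 for Psmb9 and 2.59 for both Psme1 and Psme2, and 0.15 for Tap1. The median over all tested loci was 0.30. Without B6.Sle1b replicate 1 the median log2 difference of the 9 loci was 0.050, with 4 of 9 lower. Without replicate 2 it was -0.69, with 9 of 9 lower. Over all tested loci the median was 0.019 without replicate 1 and -0.17 without replicate 2. In bulk tissue, fewer cells of a type and less RNA per cell cannot be told apart.

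With the level of ribosomal protein genes as a covariate, 0 of 9 loci passed an adjusted p of 0.05, against 0.0364% of all loci. Psmb9 kept the most negative difference, -0.78 (SE 0.55, limma, unadjusted p = 0.167). Psme1 was higher in Sle1b.IFNγR-/- by 0.80 (SE 0.28, unadjusted p = 0.0082, adjusted p = 0.811, between 0.666 and 0.99988 over all alternatives), 1 of 9 loci with an unadjusted p under 0.05 against 3.86% of all loci in that direction, and 0 of 9 against 1.56% in the lower one. The signs were 3 lower and 6 higher, and 47.8% of all tested loci were lower.

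When each scaled count was divided by the ribosomal level of its library, Psmb9 read 24.6, 15.3 and 25.7 in the B6.Sle1b libraries, against 14.0, 8.93 and 9.64 in the receptor-deficient ones. On this scale its groups no longer overlapped, 1 of 9 loci against 0.25% of all tested loci in the lower direction. Psme1 read 85.4, 58.9 and 107 against 117, 152 and 137, without overlap in the higher direction, where 11.4% of all tested loci stood likewise. This scaling moved the median of all tested loci from -0.083 to 0.56, and relative to that median the member median was -0.045. The limma test on these values gave Psmb9 a log2 difference of -0.94 (SE 0.78, unadjusted p = 0.230).

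The swap of catalytic subunits was examined as a ratio within each library, in which a scale shared by all loci cancels apart from the pseudocount of 1. Differences between libraries that vary by locus do not cancel. Between B6.Sle1b replicates 1 and 2 Psmb9 differed 6.82-fold, whereas Psmb6 had 90.7 and 92.9. The constitutive genes had low counts: Psmb5 lay between 3.37 and 23.4, Psmb7 between 0 and 27.5, and only Psmb6, between 62.8 and 110, passed the filter (log2 difference 0.27, 95% interval -0.35 to 0.89). The log2 ratio of Psmb9 over Psmb6 was -0.21, -2.91 and -1.28 in the B6.Sle1b libraries, against -2.75, -3.46 and -3.76 in the receptor-deficient ones. Its means were -1.46 ± 1.36 and -3.33 ± 0.52 (SD, n = 3 each), and the groups overlapped through B6.Sle1b replicate 2. The difference of -1.86 had a two-sided exact permutation p of 0.2, where 3 against 3 libraries cannot go below 0.1, and 0.3 after adjustment over the 4 ratios.

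For the other ratios, those of Psmb8 and Psmb10 had higher means and the summed ratio a lower mean in the receptor-deficient libraries. For the Psmb8 and Tap2 locus over Psmb5, which also counts Tap2, the mean log2 ratio was 3.35 ± 0.71 in the B6.Sle1b libraries, against 4.04 ± 0.54 in the receptor-deficient ones. The difference of 0.68 was 0.27 without B6.Sle1b replicate 1 and 0.41 without Sle1b.IFNγR-/- replicate 2. Psmb10 over Psmb7 gave 0.80 ± 0.94 and 2.38 ± 2.02, with Psmb7 at 0 in Sle1b.IFNγR-/- replicate 3. The difference of 1.58 was 0.52 without that library and 0.54 with a pseudocount of 10. The sum of the 3 inducible over the sum of the 3 constitutive loci gave 0.73 ± 0.42 and 0.38 ± 0.18 (SD, n = 3 each). The difference of -0.34 lay between -0.57 and -0.15 when single libraries were left out. In every library the locus that also counts Tap2 was the largest inducible term of this sum, and Psmb6 the largest constitutive one. Each of these ratios had an exact permutation p of 0.3, also after adjustment, and each overlapped between groups.

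**Figure D3:**
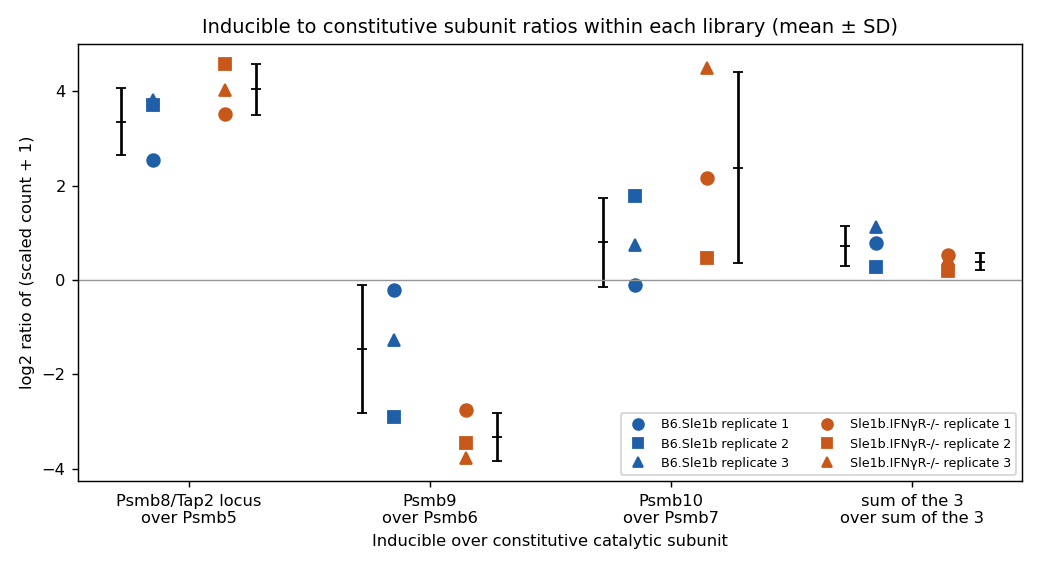
The log2 ratio of inducible over constitutive catalytic subunit within each library (vertical axis), with libraries as points and mean ± SD as bars. Psmb9 over Psmb6 is lower in Sle1b.IFNγR-/- apart from B6.Sle1b replicate 2 at -2.91, below the highest Sle1b.IFNγR-/- library at -2.75.

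The rest of the pathway was read from lists of related genes. No gene of them passed over all loci. Of 10 tested other core subunits, 7 had lower values in Sle1b.IFNγR-/- (median log2 difference -0.27). Psma1, a core α subunit, had 42.8, 4.93 and 17.8 against values of 0, 7.87 and 0, and Psma4, another, had means of 27.7 ± 23.4 and 10.7 ± 2.49. Of 18 subunits of the regulatory particle that unfolds substrates, 14 were lower (median -0.21), among them the ubiquitin receptor gene Adrm1 (26.7 ± 9.14 against 16.3 ± 12.2) and Psmd3 (25.3 ± 2.37 against 17.7 ± 6.71, without overlap). In this list 2 of 18 loci had no overlap in the lower direction, against 5.19% of all tested loci. All 6 tested other activators, inhibitors and assembly factors were lower (median -0.19), with Psmg2 at 42.4 ± 6.75 and 31.1 ± 14.0. Pomp, the assembly chaperone that immunoproteasome building needs, had 95.7, 16.6 and 65.6 against 31.4, 29.0 and 38.3. These medians all became positive, between 0.074 and 0.094, without B6.Sle1b replicate 1. Without replicate 2 they were more negative than in the full fit, between -0.47 and -0.45.

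All 7 class I chains and general chaperones were lower, with a median of -0.90, or -0.11 with 4 of 7 lower without B6.Sle1b replicate 1. Without replicate 2 the median was -1.51, with 7 of 7 lower. H2-K1, a classical class I heavy chain, had 675, 99.5 and 218 against 102, 82.0 and 111, a log2 difference of -1.32 (limma, unadjusted p = 0.023, adjusted p = 0.99976). H2-D1, another heavy chain, had 310, 40.3 and 119 against 66.5, 45.0 and 31.1. In both genes only B6.Sle1b replicate 2 lay within the receptor-deficient range. H2-K1 and H2-D1 are similar in sequence and fragments may have been divided between them.

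Of 8 tested regulators, 7 were lower (median -0.42, or -0.13 without B6.Sle1b replicate 1 and -0.85 without replicate 2). Nlrc5, the transactivator of class I genes and of their processing partners, had 78.5, 47.7 and 88.1 against 66.5, 53.9 and 26.4, with overlap between the groups. Of 7 tested peptidases, 5 were higher on the log2 scale (median 0.068), but 6 of 7 were lower without B6.Sle1b replicate 2 (median -0.63). Without replicate 1 the median was 0.49, with 1 of 7 lower. Thop1, which degrades peptides in the cytosol, had 18.3, 16.4 and 25.3 against 30.6, 49.4 and 29.9 without overlap. It was 1 of 7 tested peptidases without overlap in the higher direction, against 3.51% of all tested loci. Lap3, an aminopeptidase known to respond to interferon-γ, had means of 51.6 ± 19.8 and 35.3 ± 5.74.

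Spleen markers were present, and several moved with the libraries that set the members apart. Summed scaled counts of 7 B cell markers lay between 779 and 1722 in the B6.Sle1b libraries, and between 825 and 906 in the receptor-deficient ones, with none at 0. Those of 7 T cell markers lay between 253 and 487 and between 264 and 300. Plasma cell markers, with Mzb1 at 0 in at least 1 library, lay between 198 and 994 and between 161 and 189, without overlap but with a narrow gap. Of the 5 tested plasma cell loci, 3 had no overlap in the lower direction, against 5.19% of all tested loci. The median log2 difference of the 5 was -1.26, or -0.54 without B6.Sle1b replicate 1 and -1.72 without replicate 2. Erythroid markers spanned 172 to 2158 within B6.Sle1b and 482 to 715 in Sle1b.IFNγR-/-, and 6 dendritic cell markers 217 to 363 and 243 to 256. The lowest and the highest B6.Sle1b sums of the B cell, T cell, dendritic cell, plasma cell and erythroid lists were in replicates 2 and 1. The part of cell makeup in the members' differences was not tested.

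Among the loci outside these lists whose centred log2 profile lay nearest to the mean member profile over the 6 libraries were Birc6, Mdm4, the locus of Xist and Aida, at root mean square distances between 0.086 and 0.097. The members themselves lay between 0.32 (Psme1) and 0.81 (Tapbpl) from that mean. Birc6 had 410, 107 and 203 in the B6.Sle1b libraries, against 174, 161 and 149 in the receptor-deficient ones. Birc6 was high in B6.Sle1b replicate 1 and low in replicate 2, with the receptor-deficient libraries between. As these loci were picked by their distance from the member profile, this shape follows from the choice.

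**Figure D4:**
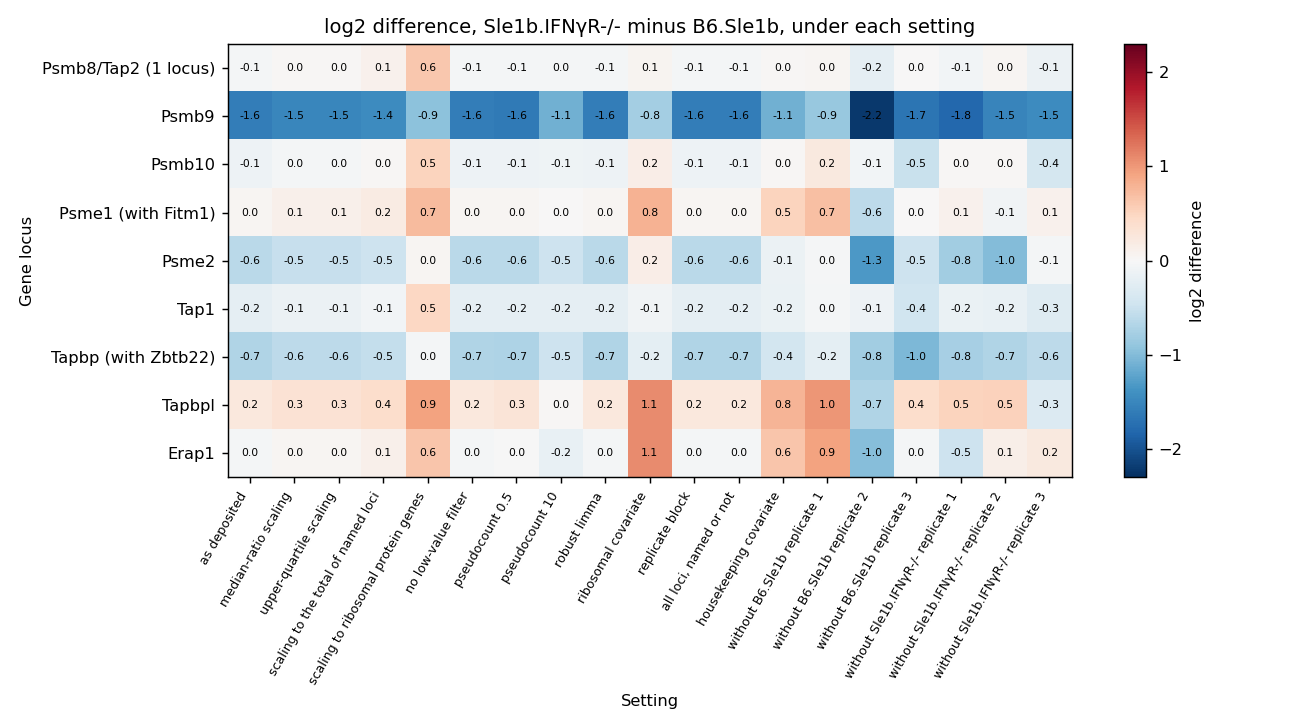
The log2 difference of each locus (rows) as deposited and under 18 other settings (columns); blue is lower and red higher in Sle1b.IFNγR-/-. Psmb9 is below 0 in every column, between -2.21 and -0.78, and the scaling to ribosomal protein genes and the removal of B6.Sle1b replicates 1 or 2 shift most rows.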

How the data were processed

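The authors deposited 1 signal value per locus and library: fragments counted per locus, on a quartile scale, as the headers and the table's name give it. The submitters' processing notes list Cufflinks 2.2.1, TopHat2 2.0.9, CASAVA and, as the build, GRCm38. Per the labels' protocols, libraries were made with the NuGEN Ovation V2 amplification kit. The sources used here do not state the annotation, the strand setting or how multiply mapped fragments were treated.

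The 1530481 rows repeat each locus per transcript and were collapsed to 426574 loci, 44794 of them with a gene name. Positive values were whole multiples of 1 step per library, within 0.01 of a step, for at least 99.79% of loci. A few small fractions kept fragments from being recovered in full, so tests for counts were not used. The 18 variance and 6 status columns were not used.

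For the 19227 named loci whose mean reached 10, log2(value + 1) was fitted on genotype alone in limma 3.58.1 (R 4.3.3, eBayes with trend), with Benjamini-Hochberg adjustment over these loci. Subunit ratios were tested by exact permutation, two-sided (python 3.11.15, numpy 2.4.6, pandas 2.3.3, scipy 1.17.1, matplotlib 3.10.9). The fit was tested on simulated data. Gene positions came from GENCODE mouse release 21, and promoters from RefSeq.

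The members and lists were chosen with earlier results of these data known. Of 186 list entries 183 matched a name. All members are named, with the 2 genes of smallest p in each pathway list, every gene of the list of 3, and the 5 loci of nearest profile; Birc6 alone is given with values. Of the genes this rule names, 2 are not reported here. Ifngr1 and the ratio of Psmb9 to Tap1 were added after values were seen. Alternatives were other scalings, filters and pseudocounts, robust limma, a ribosomal covariate, a replicate block, all loci and leaving out each library; a housekeeping covariate was added after the data were seen.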

Additional observations from a re-analysis of the deposited data

How the results depend on the processing

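No gene passed as deposited (limma; 596 had an unadjusted p under 0.05). Scaling to the total of named loci gave 1 gene, the ribosomal covariate 7, the housekeeping covariate 8, the fit of all 152353 loci 6, and leaving out single libraries between 0 and 5, with 5 each without B6.Sle1b replicate 1 or 2. None of these was a member. The planned edgeR and DESeq2 tests were not run, as fragments were not recovered in full.

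Psmb9 (18 alternatives) and Tapbp (18) stayed below 0 in all, Psmb9 between -2.21 and -0.78 and Tapbp between -1.04 and -0.041, and with a minimum mean of 50 only 3 of the 9 loci could be tested. Other signs turned; the cause was not tested. Scaling to ribosomal protein genes gave 0.621 for the Psmb8 and Tap2 locus, 0.518 for Psmb10, 0.045 for Psme2, 0.47 for Tap1 and 0.638 for Erap1. The ribosomal covariate gave 0.065, 0.159, 0.15 and 1.089 for the Psmb8 and Tap2 locus, Psmb10, Psme2 and Erap1, and the housekeeping covariate 0.024, 0.031 and 0.645 for that locus, Psmb10 and Erap1. Scaling to named totals gave 0.094, 0.023 and 0.118 for the same 3. Median-ratio scaling gave that locus 0.027 and Erap1 0.046, and upper-quartile scaling 0.027 and 0.050. Leaving out single libraries gave between -0.21 and 0.05 for the Psmb8 and Tap2 locus, -0.513 and 0.231 for Psmb10, -0.594 and 0.70 for Psme1, -0.693 and 1.022 for Tapbpl, and -0.988 and 0.924 for Erap1.

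The member median ranged from -0.69 to 0.52 over 19 alternatives, each within 0.648 of the value as deposited, the spread between replicates. That spread is wide, so lying within it does not make the median stable. The signs ran from 9 of 9 lower without B6.Sle1b replicate 2 to 7 of 9 higher with scaling to ribosomal protein genes. The 4 subunit ratios kept their sign in all 9 alternatives each, with ranges of -2.58 to -1.23 for Psmb9 over Psmb6, 0.27 to 0.95 for the Psmb8 and Tap2 locus over Psmb5, 0.52 to 2.53 for Psmb10 over Psmb7 and -0.57 to -0.15 for the summed ratio. With the replicate number as a block the limma count was 0 and the Psmb9 over Psmb6 difference had a paired exact p of 0.25, the smallest that 3 pairs allow. Deviations of same-numbered libraries correlated at 0.012, -0.027 and -0.011, so the numbers were not taken to pair samples. Psmb10, Tapbpl, Tapbp, Psmb9 and Erap1 had under 30 fragments in most libraries, which limits their precision.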
